A study of Drosophila melanogaster with 4 samples.

Results

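The expression of 10 genes of the ecdysone response and of temporal identity was followed over the extended larval life of *scrib* mutant wing discs. The list was chosen with earlier results of these data known. Its genes were taken by name, and the rule for members used no measured value. They comprised the hormone receptor subunits *EcR* and *usp*, the ecdysone-induced transcription factors *br*, *Eip75B*, *Eip74EF* and *Eip93F*, the prepupal nuclear receptor *ftz-f1* with *Blimp-1*, and the temporal factors *chinmo* and *mamo*. Of the 9074 genes listed in any of the 4 libraries, 7845 were listed in all of them, and 8 of the 10 genes were among these. *Eip93F* and *Blimp-1* were listed on day 14 only. In the oldest discs *br*, *Eip75B*, *Eip74EF* and *EcR* were between 3.74 and 9.57 times their day 4 level and *mamo* was at 0.433 of its own, while *usp*, *ftz-f1* and *chinmo* stayed within 2-fold.

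Ecdysone is the steroid hormone whose pulses time the molts and metamorphosis of insects. It binds a heterodimer of the nuclear receptors EcR and Ultraspiracle, which switches on a first set of transcription factors, Broad, Eip74EF and Eip75B, and these in turn act on later genes. In the wing disc the BTB zinc finger protein Chinmo marks the young larva, Broad the late larva and Eip93F the pupa, so the order of these factors records the developmental stage of the tissue.

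All discs came from larvae of genotype scrib-/-FRT82B, from the parental strain scrib[1]FRT82B/TM6B, collected at 4, 5, 8 and 14 days after egg laying (AEL). Each age was 1 library of single cells made with the 10x method, which counts each captured RNA molecule once by a unique molecular identifier (UMI). Every library carried the same mutant allele and no unmutated disc was analysed here, so the values describe aging of mutant discs and not the effect of the mutation. How many larvae went into a library is not given. With 1 library per age, age and preparation cannot be told apart, no test between ages was possible, and a smaller number of positive cells and less RNA per cell are separated below only as shares and means. All intervals below are at the 95% level and cover counting error only.

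There were 3785, 6457, 3104 and 1110 cells on days 4, 5, 8 and 14, with library totals between 22458962 and 134888985 UMIs and median cells between 18299 and 23326 UMIs. Between 5 and 34 cell barcodes were shared by any pair of libraries. Of 7 myoblast markers, at least 6 were 2-fold or more above the other cells in 1 cluster of each library, called myoblast-like below, which held between 3.78% and 6.77% of cells. *Fas3*, an adhesion protein of the disc epithelium, was detected in at least 99.7% of the other cells at each age. The hemocyte markers *Hml*, *Pxn*, *Nplp2*, *srp* and *He*, the fat body markers and the glial marker *repo* were not listed at any age. Other genes of these marker lists were detected in the cells outside the myoblast-like clusters at every age, the hemocyte gene *crq* in 19.0% to 27.2% of them and the glial genes *nrv2* and *moody* in 93.5% to 96.7% and 21.4% to 30.2%. The tracheal genes *serp* and *verm* were in 77.6% to 96.9% and 95.5% to 99.1% of these cells, and the neuronal gene *elav* in 18.1% to 34.6%. Clusters of 9 cells on day 5 and 18 cells on day 14, with 4 tracheal markers raised 2-fold, were kept among them. Outside the myoblast-like clusters the myoblast gene *twi* still gave a UMI in 0.386%, 0.412%, 0.829% and 2.53% of cells on days 4, 5, 8 and 14. These shares are used below as a reference only. Whether they came from free RNA or from myoblasts placed in other clusters was not tested.

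In the Ensembl annotation of BDGP6, *br* (FBgn0283451) lies on chromosome X from 1575132 to 1664869, *usp* (FBgn0003964) on X from 2038798 to 2042311 and *mamo* (FBgn0267033) on X from 13846116 to 13990527. On arm 3L lie *Blimp-1* (FBgn0035625, 5630983 to 5652094), *Eip74EF* (FBgn0000567, 17558672 to 17619325), *Eip75B* (FBgn0000568, 17950953 to 18064696) and *ftz-f1* (FBgn0001078, 18750607 to 18801309). *EcR* (FBgn0000546) lies on 2R from 6087873 to 6169087, *chinmo* (FBgn0086758) on 2L from 1651258 to 1704682 and *Eip93F* (FBgn0264490) on 3R from 21949114 to 22014539. The sources used here do not give the build behind the deposited values. *usp* overlaps *Actn* on its own strand and *CG4313* on the other, and *br* overlaps *Mur2B* on the other strand. All 3 neighbours are listed in the files, and the sources do not give how reads in the overlaps were assigned.

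*EcR*, the ligand-binding subunit of the receptor, had a mean of 0.403, 0.434, 0.825 and 1.51 UMIs per 10000 on days 4, 5, 8 and 14. The first pair of ages were close together and each later age stood well above the one before. The day 14 mean was 3.74 times the day 4 mean, a log2 ratio of 1.90 ± 0.068 (counting half-width). A UMI of *EcR* was found in 54.4%, 52.2%, 72.9% and 87.4% of cells, and in 40.1%, 41.7%, 63.1% and 81.5% after each cell had been thinned to 14609 UMIs, so that the share of positive cells was higher in the older discs at equal depth too. Its partner *usp*, the RXR homolog that EcR needs to bind DNA, had means of 0.236, 0.229, 0.266 and 0.384 per 10000 at the same ages. Its log2 ratio between days 14 and 4 was 0.70 ± 0.11, so the 2 subunits of the receptor did not change by the same ratio. The thinned share of cells with *usp* was 29.5%, 29.1%, 32.6% and 45.2%.

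**Figure D1:**
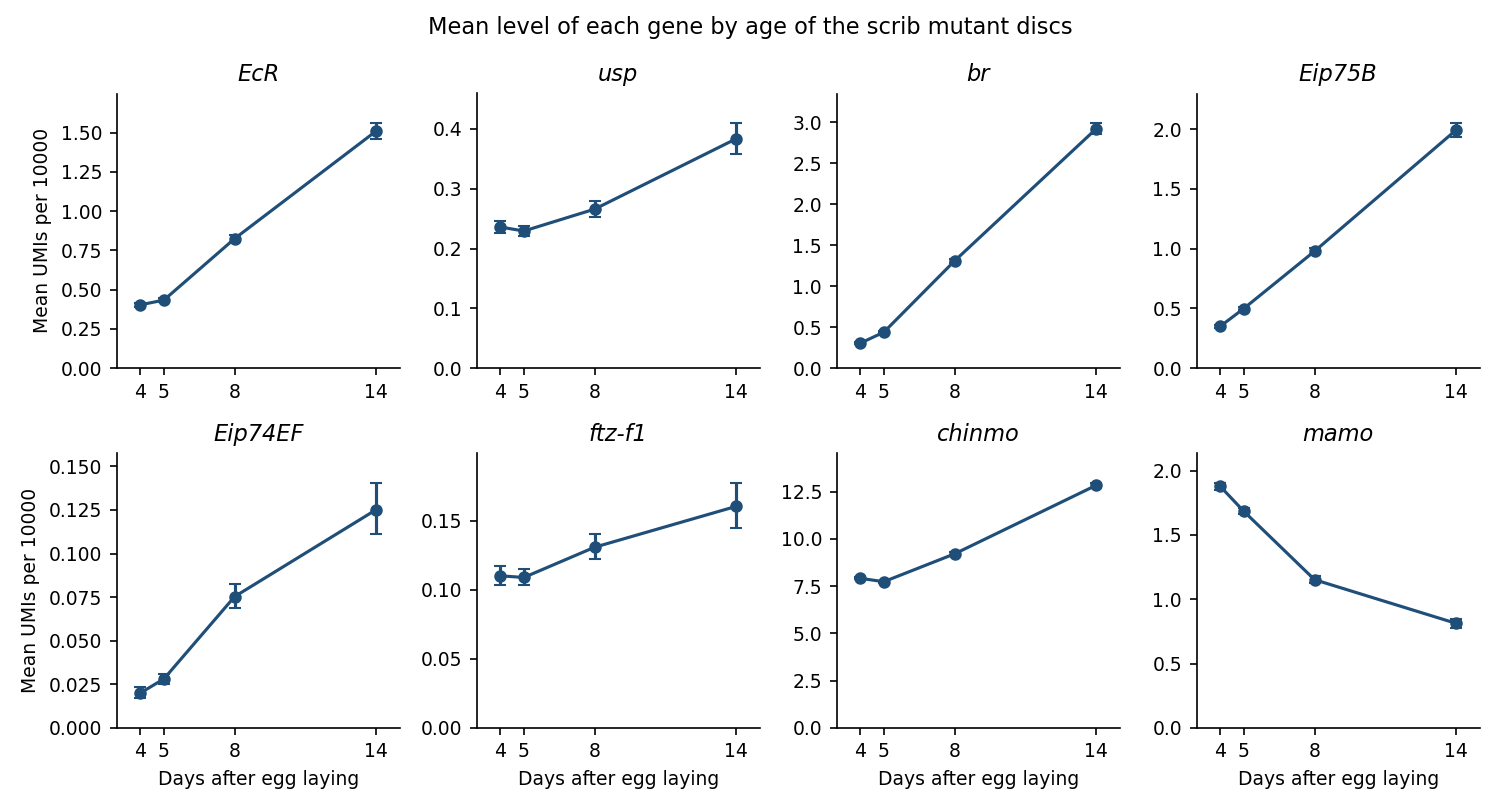
Mean UMIs per 10000 (vertical axis, from 0, with a scale of its own for each gene) against days after egg laying for the 8 genes listed in all 4 libraries; each point is 1 library and bars are exact Poisson intervals of the UMI sum, scaled to the mean. *EcR*, *br*, *Eip75B* and *Eip74EF* climb at each step, *mamo* declines at each step to 0.812, and *usp*, *ftz-f1* and *chinmo* are nearly level between days 4 and 5 and highest on day 14.

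The early ecdysone-induced genes gave the largest differences. *br*, which encodes the Broad zinc finger factors, had a mean of 0.305, 0.440, 1.31 and 2.92 per 10000 on days 4, 5, 8 and 14, so each age exceeded the one before. The day 14 level was 9.57 times the day 4 level (log2 ratio 3.26 ± 0.065), which placed *br* above 97.5% of the 7886 genes with a UMI on both days. Cells with a UMI made up 45.6%, 51.8%, 82.2% and 94.7%, and 32.7%, 42.0%, 75.6% and 91.7% after thinning. By day 14 *br* was thus found in nearly every cell, and the 10th percentile of cells was at 0.572 per 10000 against 0 on day 4.

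*Eip75B*, a heme-binding nuclear receptor, had a mean of 0.350, 0.499, 0.979 and 1.99 per 10000, with the same order of ages. Its day 14 level was 5.68 times that of day 4 (log2 ratio 2.51 ± 0.067), and thinned shares of cells were 34.9%, 44.04%, 65.4% and 84.5%. *Eip74EF*, an ETS domain factor, was sparse, with 156, 350, 464 and 280 UMIs in the 4 libraries and means of 0.020, 0.028, 0.075 and 0.125 per 10000. The day 14 level was 6.27 times the day 4 level (log2 ratio 2.65 ± 0.28), and a UMI was seen in 4.02%, 5.03%, 13.1% and 21.4% of cells. Even on day 4 this share exceeded the 0.386% of *twi* outside the myoblast-like cells, at similar median depths of 23326 UMIs for all cells and 23714 UMIs for the cells outside.

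*Eip93F*, which marks the pupa, had 13 UMIs in the day 14 library, in 1.08% of cells (0.560 to 1.88). The share over all cells lies below the 2.53% found for *twi* outside the myoblast-like cluster, at median depths of 19222 and 19240 UMIs. A reference from *twi* alone cannot decide whether the UMIs of a scarce gene are background. In a cluster of 32 cells led by *bnl*, *Cpr64Ad* and *CG11825* 3 cells held 4 of the 13 UMIs, a share of 9.38% (1.98 to 25.0), against 0.835% (0.383 to 1.58) of the other 1078 cells. This cluster was picked as the highest of the 8 with at least 20 cells, and the intervals do not allow for that choice. *Blimp-1*, an ecdysone-induced repressor that delays *ftz-f1* in prepupae, had 49 UMIs on day 14, in 3.78% of cells (2.74 to 5.08), which is above the share of *twi*, and 25 of the 49 lay in the 182 cells of a cluster led by *Alp1*, *sr* and *AsnS*. *ftz-f1*, the nuclear receptor that prepares tissues for the prepupal pulse, had means of 0.110, 0.109, 0.131 and 0.160 per 10000. The log2 ratio between days 14 and 4 was 0.54 ± 0.17, close to the median of 0.39 over all genes with a UMI on both days, and its thinned shares were 13.9%, 13.3%, 17.7% and 20.5%. *ftz-f1* thus changed little relative to other genes, and *Eip93F* and *Blimp-1* were scarce even in the oldest discs.

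*chinmo*, the factor of the young larva, had a mean of 7.92, 7.74, 9.21 and 12.8 per 10000 on days 4, 5, 8 and 14. The level was highest in the oldest library, at a log2 ratio of 0.70 ± 0.020 to day 4, beside the median of 0.39 over all genes. The ratio was 0.41 without ribosomal protein genes in the cell totals and 0.20 on the mean of the deposited log values, which gives less weight to the cells with most *chinmo*. On day 14, 98.5% of cells still held a UMI, against 99.9% of day 4 cells. *mamo*, a BTB zinc finger gene known from the germ line and from temporal identity in mushroom body neurons, went the other way, with means of 1.88, 1.68, 1.15 and 0.812 per 10000. Each age lay below the one before. The day 14 mean was 0.433 of the day 4 mean (log2 ratio -1.21 ± 0.070), a value under which only 1.61% of genes fell. The share of cells with *mamo* was 92.4%, 87.2%, 61.1% and 44.95%, and 82.7%, 80.9%, 55.2% and 40.9% after thinning. No other of the 8 genes had a lower mean on day 14 than on day 4.

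Of the 8 genes with a UMI on both days, 4 were at least 2-fold higher on day 14 than on day 4 and 1 was at least 2-fold lower. Over all 7886 genes the same rule called 22.0% higher and 2.46% lower, and among 2453 genes whose mean reached 0.5 per 10000 on either day it called 16.0% and 1.71%. Of the 8 genes, 5 passed that level (*EcR*, *br*, *Eip75B*, *chinmo* and *mamo*), and 3 of the 5 were called higher and 1 lower. The median log2 ratio was 1.30 over the 8 genes and 0.39 over all genes with a UMI on both days. Of day 8 against day 4, 4 of the 8 were called higher and 0 lower, with 8.59% and 1.80% of all genes called, and the 4 were again *EcR*, *br*, *Eip75B* and *Eip74EF*. Day 14 against day 5 gave 4 higher and 1 lower, with 22.5% and 2.33% of all genes called. At 1.5-fold, day 14 against day 4 gave 6 higher and 1 lower, with 39.8% and 7.14% of all genes called. These comparisons share libraries. At 2-fold between days 14 and 4 the share of the 8 genes called was above that of all genes in both directions, which with 8 genes and 1 library per age is a description.

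The steps between neighbouring ages were uneven. Between days 5 and 4 none of the 8 genes reached 2-fold, with 1.81% of all genes called higher and 0.620% lower, but *br*, *Eip75B* and *Eip74EF* already had log2 ratios of 0.53 ± 0.066, 0.51 ± 0.063 and 0.49 ± 0.27, while *EcR* had 0.10 ± 0.062. The step of day 8 over day 5 was the largest for *br* (1.57 ± 0.049), *Eip74EF* (1.42 ± 0.20), *EcR* (0.93 ± 0.055) and *mamo* (-0.55 ± 0.039), and *br* and *Eip74EF* were called higher, with 7.39% of all genes called higher and 1.5% lower. Day 14 over day 8 gave 1.16 ± 0.047 for *br*, 1.02 ± 0.055 for *Eip75B*, 0.87 ± 0.062 for *EcR* and 0.73 ± 0.21 for *Eip74EF*, with 10.2% of all genes called higher and 1.48% lower. For *chinmo* and *usp* this was the largest step, at 0.48 ± 0.020 and 0.53 ± 0.12. The ages are 1, 3 and 6 days apart, so these steps are not rates.

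**Figure D2:**
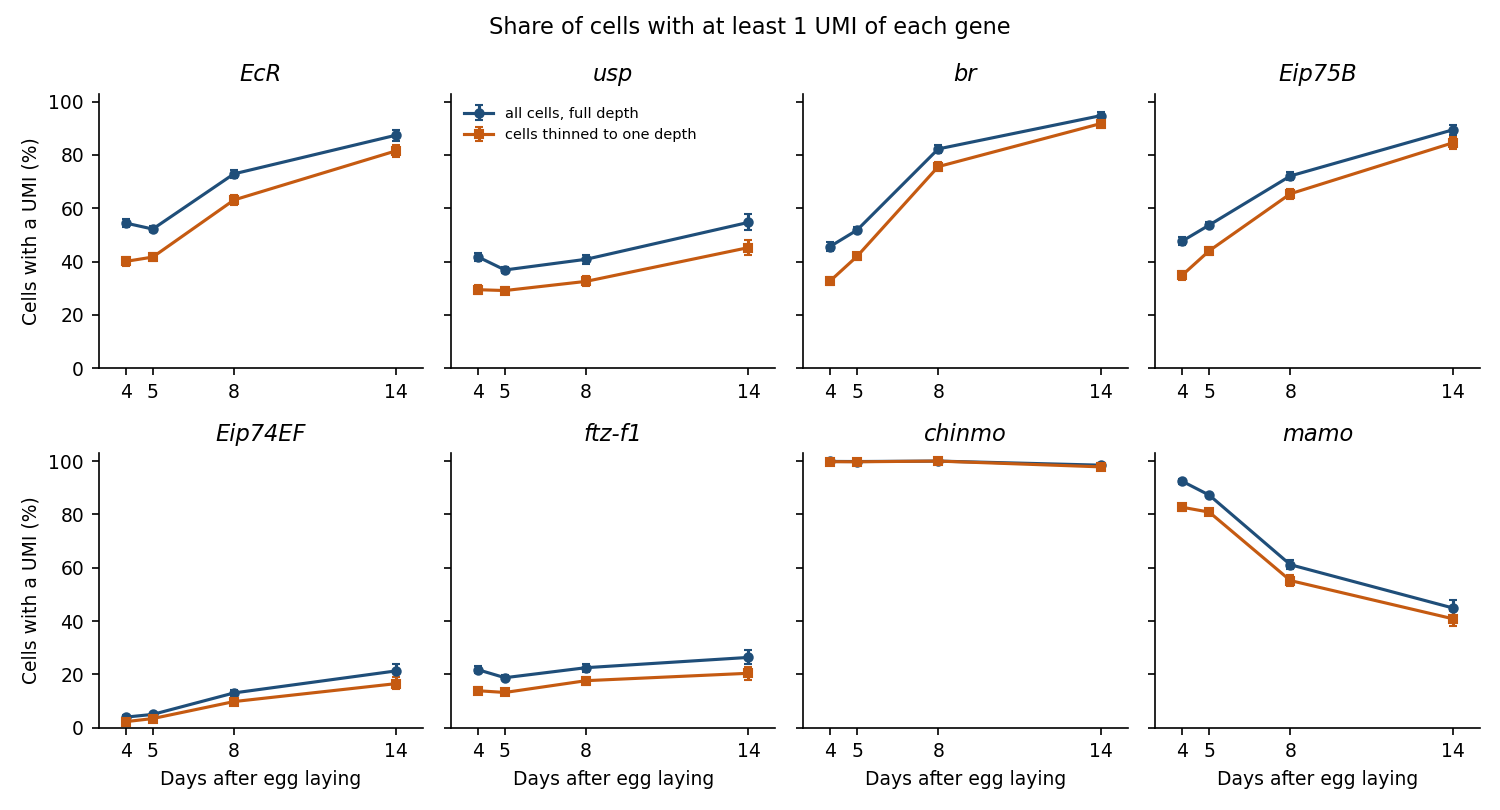
Percentage of cells with at least 1 UMI (vertical axis) against days after egg laying for the 8 genes; circles are all cells at full depth, squares are cells thinned to 14609 UMIs, and bars are exact binomial intervals. Thinning lowers most shares, but keeps the climb of *br* (91.7% on day 14 and 32.7% on day 4 after thinning) and the decline of *mamo* (40.9% and 82.7%), while *chinmo* stays near the top at every age.

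The cells of a library differed widely. At equal depth, the 90th percentile of day 4 cells was 1 UMI of *br*, and 78.3% of day 14 cells exceeded that level against 7.27% of day 4 cells. For *Eip75B*, also above 1 UMI, the shares were 66.5% on day 14 and 9.66% on day 4, and for *EcR*, above 2 UMIs, 37.0% and 2.76%. *chinmo* spread in both directions. On day 14, 40.3% of cells exceeded the day 4 90th percentile of 19 UMIs, against 8.83% on day 4, while 9.01% lay below the day 4 10th percentile of 4 UMIs, against 6.13%. The ratio of variance to mean of the thinned *chinmo* counts was 3.46, 3.32, 3.57 and 9.05 on days 4, 5, 8 and 14, so the day 14 library stood apart from the other 3.

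*mamo* was spread less evenly in the later libraries. Its ratio of variance to mean in thinned cells was 2.03, 2.02, 3.36 and 4.36 on days 4, 5, 8 and 14, while its thinned mean was 2.46, 2.26, 1.58 and 1.22 UMIs. The median cell was at 1.496, 1.33, 0.578 and 0 per 10000. The most strongly labelled cells changed less, with a 90th percentile of 3.92, 3.61, 3.18 and 2.53 per 10000. The thinned counts of *usp* had a ratio of variance to mean between 0.934 and 1.04, close to the value of 1 that counting alone gives.

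Pairs of genes were compared over the cells of each library with Pearson's r on the log values. These are descriptions over 3785, 6457, 3104 and 1110 cells that share a library, its depth and its clusters. Of the 28 pairs among the 8 genes, 7, 10, 11 and 14 had an r of at least 0.1 on days 4, 5, 8 and 14, the median r was 0.056, 0.042, 0.086 and 0.107, and no pair was at or below -0.1. In thinned cells 6, 8, 9 and 13 pairs reached 0.1. The share over all pairs of genes was not computed, so these counts cannot be called particular to the 8 genes.

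Among the ecdysone genes, the pairs of *EcR*, *br* and *Eip75B* had a higher r in the later libraries. *br* and *Eip75B* had r of 0.118, 0.125, 0.317 and 0.384 on days 4, 5, 8 and 14. *EcR* and *br* had 0.075, 0.104, 0.223 and 0.288, and *EcR* and *Eip75B* had 0.161, 0.133, 0.209 and 0.322. In all 3 pairs the late libraries were above the early ones, and in thinned cells the day 14 values were 0.330, 0.255 and 0.300, against 0.077, 0.054 and 0.105 on day 4. The mean levels were also higher in the later libraries, and their part in these values was not tested. Genes outside the list could also have a larger r on day 14, such as *hdc* with *EcR* (0.244 on day 4 and 0.423 on day 14). *usp* had no r of 0.1 with any of the other 7 genes at any age, and its r with *EcR* was between -0.002 and 0.069.

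**Figure D3:**
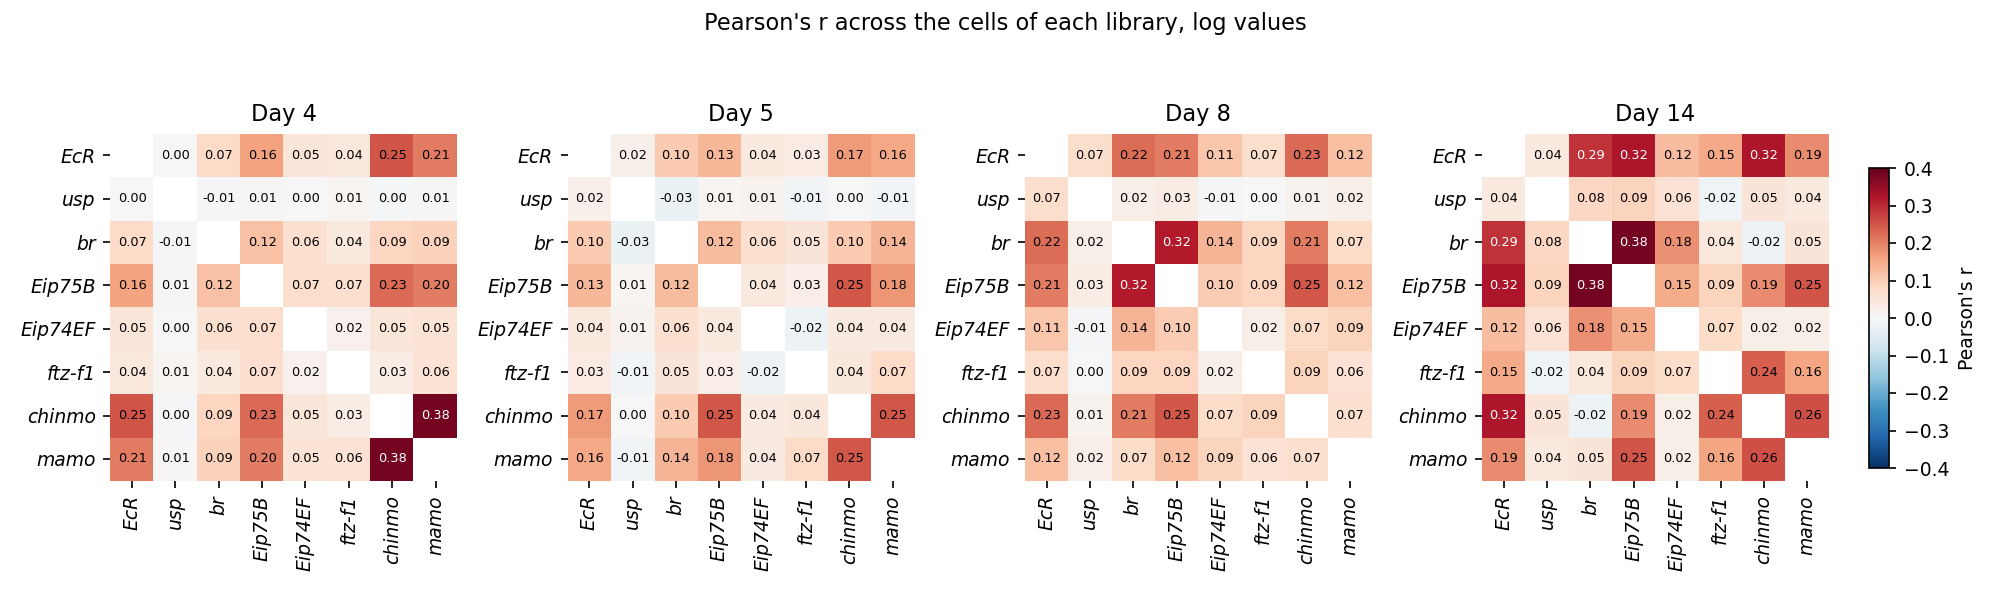
Pearson's r across cells for the 28 pairs of 8 genes, 1 panel per age with genes on both axes; colour and printed value give r, red above 0 and blue below. The *EcR*, *br* and *Eip75B* block deepens to between 0.288 and 0.384 on day 14, the *usp* row stays below 0.1, and *br* with *chinmo* is at -0.019 on day 14.

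The temporal factors followed another course. *chinmo* and *mamo* were most closely associated on day 4, with r of 0.384, 0.247, 0.065 and 0.258 on days 4, 5, 8 and 14. *chinmo* and *EcR* had 0.253, 0.170, 0.228 and 0.323. *chinmo* and *br* had 0.085, 0.105, 0.207 and -0.019, so that on day 14 the level of the young larval factor did not track that of the late larval factor. A UMI of each was found in 89.8% of thinned day 14 cells, against 32.6% of thinned day 4 cells. The products of the single shares were 89.7% and 32.6%. As *chinmo* was found in nearly every cell on both days, these shares follow that of *br*. They cannot show whether the levels of *chinmo* and *br* go together. Depth moved with both temporal factors on day 4, where the r of *chinmo* and *mamo* with the cell's UMIs was -0.275 and -0.211 in thinned cells. On day 14 these were 0.095 and 0.051. With each cell's value set relative to the mean of its cluster, *chinmo* and *mamo* had 0.290, 0.265, 0.177 and 0.252, *br* and *Eip75B* had 0.108, 0.109, 0.255 and 0.267, and *chinmo* and *br* had -0.003 on day 14.

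The genes closest to each member were ranked by mean r over the 4 libraries among 5681 genes detected in at least 10% of cells in each. For *br* the closest was *Syp*, an RNA-binding protein of late temporal identity in neuroblasts, with r of 0.120, 0.155, 0.428 and 0.597, followed by *tna* and *hdc*, and the lowest was *sesB* at a mean of -0.223. *Syp* also ranked first after thinning. For *EcR* the closest were *hdc*, *CG6770* and *Syp*, with mean r of 0.310, 0.298 and 0.261, and for *Eip75B* *CG9821*, *CG6770* and *Hsromega*, with 0.322, 0.312 and 0.289. The nucleoside diphosphate kinase gene *awd* was lowest for both, at -0.271 and -0.338.

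*chinmo* was closest to *Rm62*, an RNA helicase gene, with r of 0.508, 0.446, 0.423 and 0.544, and then to *hdc* (mean 0.477) and *CG6770* (0.443). It was farthest from *tsr*, the cofilin gene, at -0.623, -0.561, -0.368 and -0.414. *mamo* was closest to *CG15098*, *hdc* and *CG9338*, with mean r between 0.322 and 0.324, and farthest from *Cyp1* at -0.353. *ftz-f1* was closest to *hdc*, *Hsromega* and *fru*, with mean r of 0.141, 0.131 and 0.125, and farthest from *eEF5* at -0.091. The values of *Eip74EF* (*br*, *Msp300* and *Ten-a* highest at 0.111, 0.109 and 0.107, *RpS4* lowest at -0.103) and *usp* (*Oda*, *eEF1alpha1* and *Atg8a* highest at 0.074, 0.072 and 0.071, *RpL23* lowest at -0.103) are too weak in sparse counts to be read, and *Oda* ranked 18 and *Atg8a* 29 after thinning. *hdc* was thus among the 3 closest genes of *EcR*, *br*, *ftz-f1*, *chinmo* and *mamo*.

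Markers of disc regions and of JNK signalling were set beside the members in thinned cells. *chinmo* went with the pouch gene *vg*, with r of 0.396, 0.422, 0.301 and 0.193 on days 4, 5, 8 and 14, and against the JNK target *Mmp1*, a matrix metalloproteinase gene, with -0.378, -0.365, -0.197 and -0.121. Both values were closer to 0 on day 14 than on day 4. So was the r of *chinmo* with the JNK target *puc*, at -0.229, -0.227, -0.034 and 0.028. The other pouch genes did not share this course, as *chinmo* had 0.195, 0.210, 0.230 and 0.177 with *nub* and 0.145, 0.183, 0.183 and 0.140 with *rn*. *chinmo* also went with some of the hinge genes, *hth*, with r of 0.206, 0.240, 0.311 and 0.141, and *zfh2*, with 0.127, 0.153, 0.203 and 0.202. With the hinge gene *tsh*, *chinmo* had only -0.055, -0.043, 0.065 and 0.044. For *br* the later libraries gave higher values with some of the hinge genes, with r of 0.084, 0.111, 0.242 and 0.335 with *hth* and 0.008, 0.052, 0.149 and 0.258 with *tsh*, while those with *zfh2* stayed between 0.032 and 0.089. Its r with *vg* was 0.035, 0.043, 0.224 and 0.145, and with *Mmp1* it was between -0.076 and -0.006. With *puc*, *br* had -0.003, 0.001, 0.049 and 0.103. Higher day 14 values of *br* were not limited to hinge genes. Among the notum genes it had 0.17 with *eyg*, 0.135 with *pnr*, 0.108 with *ush* and 0.038 with *tup* on day 14. On day 4 *br* had -0.017 with *eyg*, 0.011 with *ush* and 0.022 with *tup*, and *pnr* was not listed. *mamo* had r of -0.125 and -0.133 with the pouch gene *nub* on days 8 and 14 and 0.063 and 0.001 on days 4 and 5. The pouch genes differed in this. With *rn*, *mamo* had 0.052, 0.007, -0.114 and -0.123 on days 4, 5, 8 and 14. With *vg* it had 0.143, 0.085, -0.039 and -0.028, and with *bi* -0.075, -0.095, -0.181 and -0.121.

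Cells were then clustered within each library without using the members or the listed pathway genes, and clusters of at least 20 cells are described by their leading genes. On day 4 the cluster led by *magu*, *CG15629* and *Lcp65Ag2* (727 cells) had the highest *EcR*, *Eip75B* and *chinmo* of 7 clusters, at 0.605, 0.597 and 12.5 per 10000, and the one led by *CG12911*, *CG13117* and *mtg* (578 cells) the lowest *chinmo*, at 4.77. The day 5 library was alike, with 12.4 for *chinmo* in a cluster led by *magu* (905 cells) and 4.83 in one led by *CG12911* (896 cells). On day 8 the cluster led by *CG13053*, *Sb* and *magu* (345 cells) was highest of 9 for *EcR*, *br*, *Eip75B* and *chinmo*, at 1.25, 2.56, 1.67 and 12.9 per 10000. High *chinmo* and high *Eip75B* thus lay in the same cluster at these 3 ages, although on days 4 and 5 *br* was highest elsewhere, at 0.508 in a cluster led by *Rif1* (134 cells) and at 0.654 in the myoblast-like cluster. Depth differed between clusters as well, with a median of 29579 UMIs in the day 4 cluster led by *CG12911* and 21589 in that led by *magu*. The day 4 cluster led by *Rif1* was the shallowest of the 7, with a median of 12243 UMIs.

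On day 14 the highest *chinmo* and the highest *br* lay in different clusters. The cluster led by *CG13053*, *pncr002:3R* and *CG30377* (229 cells) had the highest *chinmo* of 8 clusters, at 20.3 per 10000, with *br* at 3.68 and *EcR*, its highest, at 2.09. The cluster led by *CG2444*, *Cpr49Ac* and *CG9192* (43 cells) had the highest *br* and *Eip74EF*, at 5.54 and 0.394, with the lowest *chinmo* and *mamo*, at 4.88 and 0.228. A cluster led by *Alp1*, *sr* and *AsnS* (182 cells) was likewise high in *br*, at 4.00, and low in *chinmo*, at 7.19, and had the highest *Blimp-1*, at 0.069. The cluster led by *glob1*, *CG7059* and *fabp* (241 cells) was lowest for *EcR*, *br* and *Eip75B*, at 0.804, 1.46 and 0.929 per 10000, levels that were still above the day 4 library means of 0.403, 0.305 and 0.350. *Eip75B* was highest in a cluster of 32 cells led by *bnl*, at 3.31. Low *mamo* was not limited to the *CG2444* cluster. It was at 0.237 in the cluster led by *CR44334*, *dve* and *CG17278* (147 cells), where *chinmo* was at 16.8. In the *glob1* cluster *mamo* was at 0.254. The median cell of the *glob1* cluster held 18412 UMIs and that of the *CG2444* cluster 20493, so depth differed less here than on day 4.

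**Figure D4:**
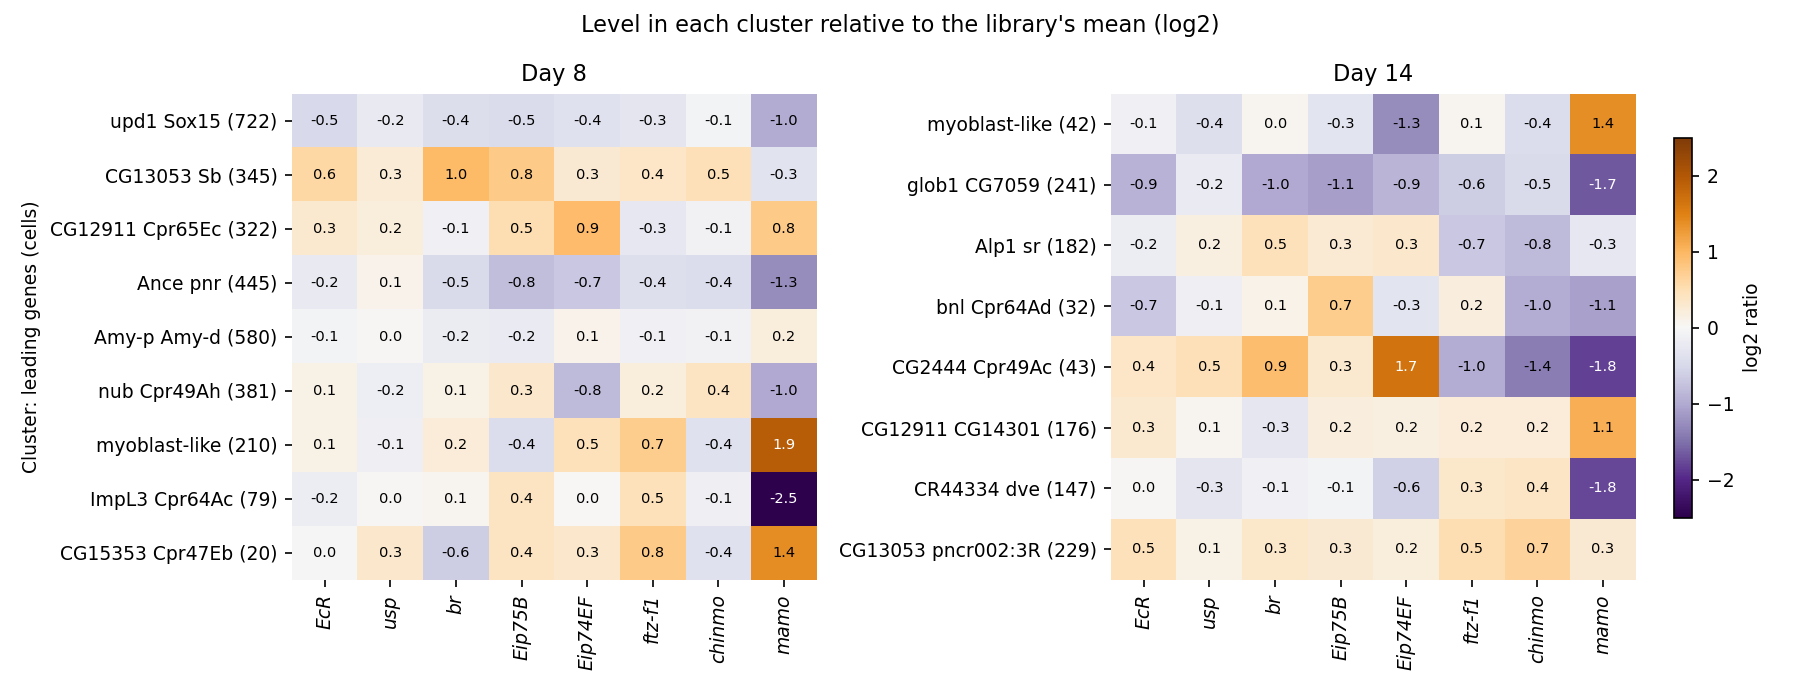
Log2 ratio of the mean in each cluster of at least 20 cells to the mean of its library, for day 8 (left) and day 14 (right); rows are clusters by their first leading genes with the number of cells, columns are the 8 genes, orange is above and purple below the library. On day 14 the *CG2444* row is high for *br* and *Eip74EF* and low for *chinmo* and *mamo*, and the *CG13053* row is highest for *chinmo*. The *CR44334* and *glob1* rows of day 14 are nearly as low for *mamo*.

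The myoblast-like cells, the muscle precursors beneath the disc epithelium, numbered 162, 395, 210 and 42 on days 4, 5, 8 and 14. They carried more *mamo* than the other cells at each age, with 3.62, 3.38, 4.44 and 2.12 per 10000 in myoblast-like cells, against 1.80, 1.57, 0.913 and 0.761 in the other cells. Between days 8 and 4 the classes also differed in direction, with log2 ratios of 0.29 ± 0.12 in myoblast-like cells and -0.98 ± 0.045 in the other cells. On day 14 both were lower than on day 4, with log2 ratios of -0.77 ± 0.23 and -1.24 ± 0.073. The difference between the classes was not tested, as each age had 1 library, and the day 14 myoblast-like cluster also held *Fas3* in 78.6% of cells, against 16.0% of the myoblast-like cells on day 4. Median depths were 17532 and 16220 UMIs in the day 14 and day 4 myoblast-like cells, and 19240 and 23714 in the other cells of these days.

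*EcR*, *br* and *Eip75B* were higher on day 14 in both classes. The log2 ratios between days 14 and 4 were 1.60 ± 0.37 in myoblast-like cells and 1.92 ± 0.070 in the other cells for *EcR*, 2.73 ± 0.30 and 3.29 ± 0.066 for *br*, and 2.52 ± 0.41 and 2.505 ± 0.068 for *Eip75B*. Epithelial genes were also higher in the day 14 myoblast-like cells, *Fas3* at 3.12 per 10000 against 0.153 on day 4 and *grh* at 0.854 against 0.047. Whether epithelial RNA added to the 3 genes there was not tested. For *Eip74EF* the myoblast-like cells gave 4 UMIs on day 14 and 14 on day 4, too few to set against the other cells. The level of *ftz-f1* in myoblast-like cells was 0.168 per 10000 on day 14, against 0.234 on day 4 (log2 ratio -0.48 ± 0.83), and 0.160 against 0.104 in the other cells (0.61 ± 0.18).

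**Figure D5:**
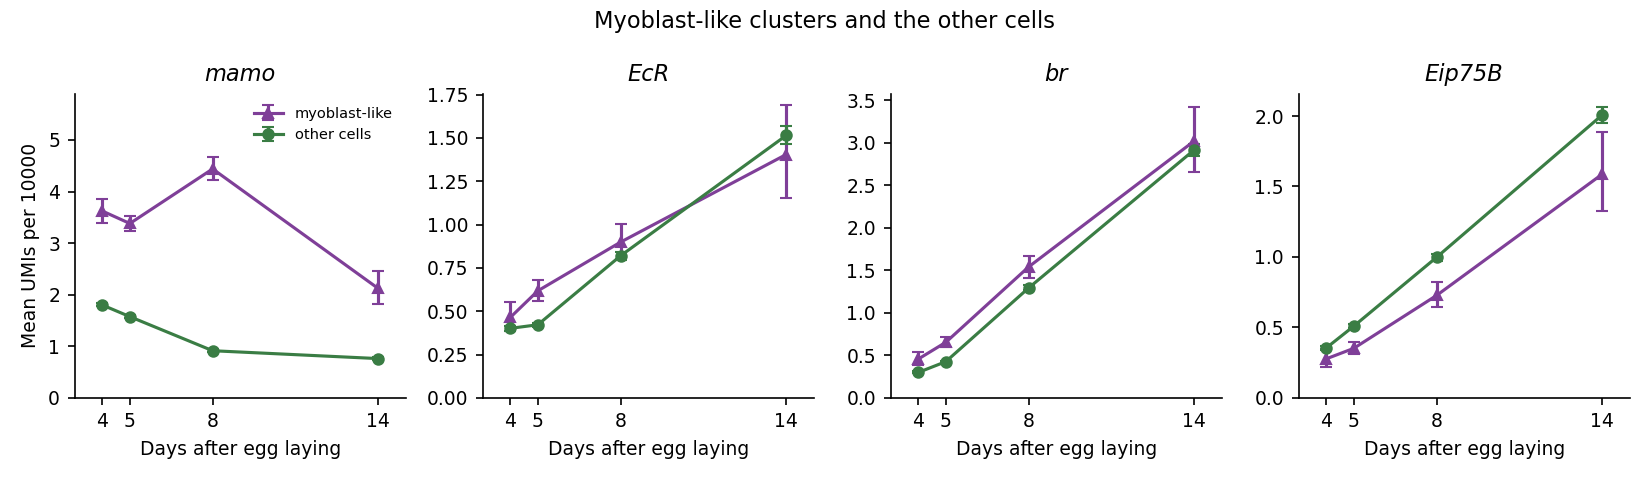
Mean UMIs per 10000 (vertical axis, from 0) against days after egg laying in the myoblast-like clusters (triangles) and the other cells (circles) for *mamo*, *EcR*, *br* and *Eip75B*; bars are exact Poisson intervals of the UMI sum, scaled to the mean. *mamo* lies higher in the myoblast-like cells at each age and peaks there on day 8 at 4.44, while the other genes climb in both classes.

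Other genes of the pathway were counted from lists of known roles. Of 11 genes of ecdysone uptake and metabolism, 6 were listed on both days, 5 were at least 2-fold higher on day 14 than on day 4 and 0 were lower, with a median log2 ratio of 2.60 against 0.39 over all genes and 22.0% of all genes called higher. *Oatp74D*, the importer that brings ecdysone into cells, had 0.321, 0.369, 0.833 and 1.61 per 10000 on days 4, 5, 8 and 14 (log2 ratio between days 14 and 4 of 2.33 ± 0.075). *Cyp18a1*, the hydroxylase that inactivates ecdysone and is itself induced by it, had 0.006, 0.009, 0.087 and 0.809 per 10000, with 48, 104, 541 and 1800 UMIs. Its log2 ratio of 7.16 ± 0.41 lay above that of 99.9% of genes, and a UMI was seen in 35.8% of day 14 cells, against 0.925% of day 4 cells. The importer and the inactivating enzyme were thus both more abundant in the older libraries, and the hormone itself was not measured.

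Of 21 ecdysone-induced genes, a list that also holds *Cyp18a1*, 16 were listed on both days, 9 were at least 2-fold higher and 0 lower, with a median of 2.08. *ImpL2*, a secreted binding protein of insulin-like peptides, had 5.70, 6.18, 8.23 and 28.1 per 10000 (log2 ratio 2.302 ± 0.016), and on day 14 the highest 10% of cells held 62.1% of its UMIs. *Eip71CD*, a methionine sulfoxide reductase gene, had 0.281, 0.362, 0.536 and 1.04 per 10000 (1.89 ± 0.080). Among 11 receptor coregulators 8 were listed on both days and 2 were called higher and 0 lower, with a median of 0.67, which is near the 22.0% of all genes called higher, and 0 of the 2 whose mean reached 0.5 per 10000 were called. Among 8 genes of the juvenile hormone response 5 were listed, 2 were called higher and 0 lower, with a median of 0.64, and again 0 of the 2 at that level.

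Of 15 other temporal identity genes 6 were listed on both days, 4 were higher and 0 lower, with a median of 1.30, where 22.0% of all genes were called higher and 2.46% lower and the median was 0.39. *Syp* had 3.40, 3.97, 6.35 and 11.4 per 10000 (1.75 ± 0.024) and was found in 99.3% of cells already on day 4. The epithelial factor *grh* had 0.739, 0.728, 1.21 and 2.40 (1.70 ± 0.052) and *ab*, a BTB zinc finger gene, 3.49, 4.25, 5.22 and 8.39 (1.27 ± 0.026). *Imp*, the early counterpart of *Syp* in neuroblasts, is named after its values were seen, and had 4.86, 4.47, 4.81 and 5.88 per 10000 (0.27 ± 0.028). Of 10 other BTB zinc finger genes 9 were listed on both days, 5 were higher and 0 lower, with a median of 1.03, against the same share of all genes. Besides *ab*, these included the repressor *ttk* (0.206, 0.240, 0.385 and 0.870 per 10000), *lola* (1.77, 1.84, 2.54 and 3.67) and *psq* (1.89, 1.77, 2.33 and 3.85). Between days 14 and 4 none of the genes in these lists was at least 2-fold lower, unlike *mamo*, whereas between days 8 and 4, where *mamo* was not called, 1 of the other temporal identity genes was, the forkhead gene *slp1*, at 0.004 per 10000 on day 8 and 0.019 on day 4 (log2 ratio -2.13 ± 0.54), named after its values were seen.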

How the data were processed

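The authors counted UMIs with Cell Ranger and normalised them with Seurat. The deposited values are natural log values of 1 plus UMIs per 10000 of the cell. The Cell Ranger version, the genome build of the single-cell data and cell filters are not stated in the labels or methods. UMIs were recovered by division by the lowest value of the cell (100% whole within 0.001). A level is the mean over cells of UMIs per 10000, taken back to the linear scale. Half-widths of log2 ratios are normal approximations on UMI sums, UMI sums have exact Poisson intervals, and shares have exact binomial (Clopper-Pearson) intervals. For equal depth, cells were thinned to 14609 UMIs, which left out 637, 1795, 626 and 0 cells on days 4, 5, 8 and 14. Clusters came from Leiden clustering (scanpy 1.11.5, igraph 0.11.9, 2000 variable genes, 30 principal components, 15 neighbours, resolution 0.5). Of the myoblast markers *CG9650*, *Him*, *htl*, *Mef2*, *stumps*, *twi* and *zfh1*, a myoblast-like cluster had 3 or more raised 2-fold over all remaining cells, and no other type had as many markers in the top 10 genes by fold. No doublet caller was run. Missing genes were treated as not listed, never as 0. The members and lists were chosen with earlier results of these data known. Named besides the 10 genes are up to 5 genes per list (0.5 or more per 10000 on day 4 or 14 and 2-fold apart), the 3 closest genes and the farthest of each member, markers and leading genes of clusters. The alternatives were other averages, scalings, centring, depths, cells, ages, thresholds, correlation measures and a clustering resolution of 1.0. The steps were tested on simulated data.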

Additional observations from a re-analysis of the deposited data

Results flagged for a closer look

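*mamo* moved in opposite directions in the myoblast-like clusters and in the other cells between the same ages. Between days 8 and 4 the log2 ratio was 0.293 in the 210 and 162 myoblast-like cells, and -0.979 in the other cells. Each value lay past its counting half-width. The difference was not tested, since each age was 1 library, and on day 14 *mamo* was below its day 4 level in both classes.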

How the results depend on the processing

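The 4 genes called higher and the 1 called lower on day 14 against day 4 were also counted as 4 and 1 with pooled UMIs, with the mean of the deposited log values, without ribosomal protein genes in the total, relative to the median of 0.19 of all genes past the level of 0.5 per 10000, in thinned cells, outside the myoblast-like clusters and for day 14 over day 5. For day 8 over day 4 they were 4 and 0, as *mamo* was at -0.705. At 1.5-fold they were 6 and 1, with 39.8% and 7.14% of all genes called. No direction of a member reversed under these settings. The ratio of *chinmo* between days 14 and 4 lay between 0.205 on the mean log values and 0.821 with pooled UMIs, and was 0.504 relative to the median of all genes past the level filter. The mean r of the pair *br* and *Eip75B* over the libraries was 0.236, and 0.197 in thinned cells and 0.185 relative to cluster means, a setting added after the data were seen. For the pair *chinmo* and *mamo* these were 0.238, 0.209 and 0.246. At a clustering resolution of 1.0 all 32 ratios of myoblast-like over other cells stayed within their half-width. The myoblast-like clusters then held 162, 395, 210 and 41 cells on days 4, 5, 8 and 14, nearly the same cells as before. This setting could therefore hardly move the ratios. No paired analysis was possible because each age had 1 library. Counts limit *Eip74EF*, *Eip93F* and *Blimp-1* most, and no value carries the difference between larvae or preparations.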
